A study of Mus musculus with 24 samples.

Results

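The comparison set 11 ATAD3A knock-in (KI) aortas against 13 wild-type (WT) aortas with drinking-water treatment held as a covariate, so that all 24 of the 24 libraries of the series entered 1 additive fit of genotype plus β-aminopropionitrile (BAPN). Its members are the libraries, placed by the genotype and treatment in their labels. The question was which genes beside Atad3a differed the same way with and without BAPN. There were 5 KI libraries on plain water and 6 WT libraries on plain water, and 6 KI-BAPN libraries and 7 WT-BAPN libraries. BAPN, an inhibitor of lysyl oxidase, was given at 0.5% (w/v) in the drinking water for 28 days from 3 weeks of age, and the other mice drank plain water. All animals were males, and the tissue ran from the ascending aorta to the abdominal bifurcation, so it holds every layer of the vessel and what adheres to it. The labels name no promoter, insertion site or founder line for the knock-in, so reads assigned to Atad3a may come from the allele, the native gene or both.

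ATAD3A is an AAA ATPase anchored in the mitochondrial inner membrane, with contacts to the outer membrane. It is known for roles in the organisation of mitochondrial DNA nucleoids, cristae and cholesterol handling. Lysyl oxidase cross-links collagen and elastin, and its inhibition in young mice weakens the aortic wall and leads to aneurysm and dissection.

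Each library held 13127645 to 26490651 counts, and mitochondrially encoded genes took 4.24 to 14.8% of them. Of 21959 genes in the table, 14216 had enough counts to be tested. Smooth muscle markers were present in every library, with a summed level of 8873 to 59010 CPM, counts scaled to a common library total. Some libraries also held much RNA of neighbouring tissue. KI libraries on plain water reached 4127 CPM of sympathetic neuron markers, and 3 KI or KI-BAPN libraries carried 3935 to 8663 CPM of adipocyte markers. WT replicate 5 carried 22842 CPM of airway epithelium markers and 6518 CPM of skeletal muscle markers. In bulk tissue, fewer cells of a type and less RNA per cell cannot be told apart.

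Atad3a was far higher in every KI library than in any WT library. On plain water it stood at 802, 617, 1010, 1338 and 1629 CPM in KI aortas, against a lowest value of 30.2, a median of 39.1 and a highest of 61.4 CPM in WT aortas. With BAPN it ranged from 231 to 1038 CPM around a median of 555 in KI-BAPN aortas, against 24.9 to 44.8 CPM around a median of 32.9 in WT-BAPN aortas. The groups did not overlap under either treatment. Over both treatments the log2 difference was 4.42 ± 0.23 (SE), with an edgeR quasi-likelihood adjusted p of 4.93e-12, and an exact two-sided permutation test of genotype within treatment gave p = 1.26e-06, the smallest of its 792792 arrangements. Within treatments the log2 difference was 4.75 on plain water and 4.14 on BAPN (edgeR interaction unadjusted p = 0.140).

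Beside Atad3a, 6 genes differed between KI and WT over both treatments at a Benjamini-Hochberg adjusted p under 0.05 in edgeR's quasi-likelihood test. Zc3h6 rose, and Kctd9, Rin1, Ankib1, Nsd2 and Chrnb1 fell. With Atad3a this is 7 of 14216 genes, or 0.0492% of those tested, of which 2 were higher (0.0141%) and 5 lower (0.0352%). The number of calls depended on single libraries. It was 86 without KI-BAPN replicate 4, 92 without KI-BAPN replicate 5 and 71 without WT replicate 5, while without any one of the other 21 libraries it lay between 6 and 10. It also depended on the tool, since DESeq2 called 299 genes (2.1%) and limma voom 311 (2.19%), each including all 7. All 7 had the same sign on plain water and on BAPN and an unadjusted p under 0.05 in each. Among all genes tested 49.7% had the same sign under both. An unadjusted p under 0.05 was found for 16.9% on plain water and 13.9% on BAPN. The additive fit uses the same libraries and itself favours such genes, so neither the shared sign nor these p are independent evidence.

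**Figure D1:**
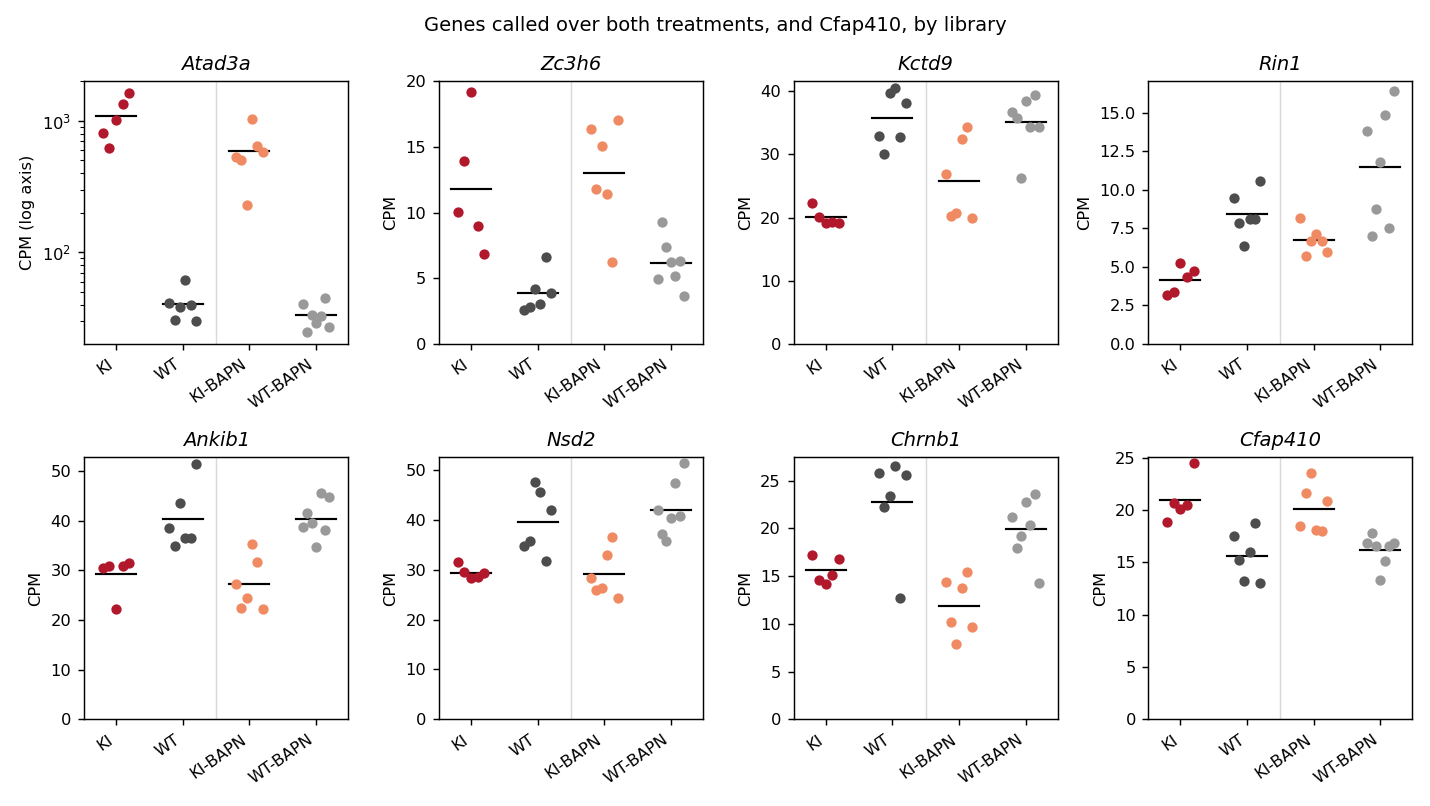
CPM in each library for the 7 called genes and Cfap410, in KI, WT, KI-BAPN and WT-BAPN aortas. Each point is 1 library and each bar is the group mean, and the Atad3a axis is logarithmic. In Atad3a and Cfap410 the KI libraries lie above all WT libraries under both treatments, while the other 6 genes overlap under at least 1 treatment.

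Zc3h6, which encodes a CCCH zinc finger protein, rose in KI aortas. On plain water it was at 10.1, 13.9, 19.2, 8.97 and 6.85 CPM in KI aortas, against 2.59 to 6.58 CPM around a median of 3.42 in WT aortas, with no overlap. Under BAPN its range was 6.21 to 17.0 CPM around a median of 13.4 in KI-BAPN aortas, against 3.61 to 9.31 CPM around a median of 6.22 in WT-BAPN aortas. Here only KI-BAPN replicate 5, the lowest of its group, fell within the WT-BAPN range. The pooled log2 difference was 1.33 ± 0.21 (edgeR adjusted p = 0.00947), 1.62 on plain water and 1.08 on BAPN. It remained called without each of the 24 libraries in turn, at log2 differences of 1.21 to 1.42. GENCODE M21 places the protein-coding gene Gm10762 over it on the opposite strand, and without strand information reads of the 2 cannot be told apart.

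Kctd9 encodes a BTB-domain protein that binds the ubiquitin ligase scaffold cullin 3, and it fell in KI aortas. Its level was 22.3, 20.2, 19.2, 19.2 and 19.2 CPM in KI aortas, a narrow band below the 30.0 to 40.6 CPM (median 35.6) of WT aortas. KI-BAPN and WT-BAPN aortas lay closer together, at 19.9 to 34.4 CPM around a median of 23.8 in KI-BAPN aortas, against 26.2 to 39.5 CPM around a median of 35.8 in WT-BAPN aortas. There KI-BAPN replicates 1, 4 and 5 lay inside the WT-BAPN range, whose lowest library, replicate 3, stood apart at 26.2 CPM. The pooled log2 difference was -0.62 ± 0.10 (edgeR adjusted p = 0.0133), with -0.84 on plain water and -0.45 on BAPN. Of the 6 genes it had the smallest interaction p (edgeR unadjusted p = 0.0545, adjusted p = 0.341), so a difference between the treatments was not shown. The call was lost with adipocyte and muscle scores as covariates (edgeR adjusted p = 0.138) and without 4 libraries rich in other tissue (0.102).

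Ankib1 encodes an ankyrin-repeat ubiquitin ligase of the RING-between-RING class. It was at 30.5, 31.0, 22.2, 30.9 and 31.4 CPM in KI aortas, against 34.9 to 51.4 CPM around a median of 37.6 in WT aortas, without overlap. Under BAPN it stood at 22.3 to 35.3 CPM around a median of 25.9 in KI-BAPN aortas, against 34.7 to 45.6 CPM around a median of 39.6 in WT-BAPN aortas. One KI-BAPN library, replicate 4 at 35.3 CPM, passed the lowest WT-BAPN library. Ankib1 fell by 0.52 ± 0.09 on the log2 scale (edgeR adjusted p = 0.0145), with log2 differences of -0.46 on plain water and -0.57 on BAPN. The adjusted p was 0.138 with adipocyte and muscle scores as covariates in edgeR, where it was no longer called.

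Nsd2, a histone lysine methyltransferase, fell by a like amount. It was at 31.6, 29.4, 28.3, 28.4 and 29.2 CPM in KI aortas, against 31.6 to 47.6 CPM around a median of 38.8 in WT aortas. With BAPN the values were 24.3 to 36.6 CPM around a median of 27.2 in KI-BAPN aortas, against 35.6 to 51.2 CPM around a median of 40.7 in WT-BAPN aortas. On plain water the highest KI library and the lowest WT library were at the edge of each other, and on BAPN KI-BAPN replicate 5 at 36.6 CPM passed 1 WT-BAPN library. The log2 difference was -0.48 ± 0.08 (edgeR adjusted p = 0.0145), -0.43 on plain water and -0.53 on BAPN, and the call was lost with adipocyte and muscle scores as covariates (edgeR adjusted p = 0.138). Nelfa overlaps Nsd2 on the opposite strand in GENCODE M21. Its own log2 difference was -0.04 ± 0.09 (edgeR adjusted p = 0.855).

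Rin1 encodes a Ras effector that activates the endosomal GTPase Rab5. Its level was 3.14, 3.36, 5.27, 4.35 and 4.71 CPM in KI aortas, against 6.33 to 10.6 CPM around a median of 8.11 in WT aortas, again without overlap. With BAPN its level was 5.73 to 8.18 CPM around a median of 6.67 in KI-BAPN aortas, against 6.97 to 16.4 CPM around a median of 11.8 in WT-BAPN aortas. The ranges met because WT-BAPN replicates 2 and 6 were low. Rin1 fell by 0.88 ± 0.15 on the log2 scale (edgeR adjusted p = 0.0133), with log2 differences of -1.01 on plain water and -0.77 on BAPN. It was not called with treatment left out of the model, with the adipocyte and muscle scores or the neuron score as covariates, or without 4 libraries rich in other tissue, at edgeR adjusted p of 0.0531 to 0.138.

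Chrnb1, the β1 subunit of the muscle acetylcholine receptor, was the gene nearest the threshold. It was at 17.3, 14.7, 14.2, 15.1 and 16.8 CPM in KI aortas, against 12.7 to 26.6 CPM around a median of 24.5 in WT aortas. On BAPN it was at 7.86 to 15.4 CPM around a median of 12.0 in KI-BAPN aortas, against 14.2 to 23.6 CPM around a median of 20.4 in WT-BAPN aortas. On plain water WT replicate 5, at 12.7 CPM, lay below every KI library and the other WT libraries above them, and on BAPN the ranges met at their edges. The pooled log2 difference was -0.65 ± 0.12 (edgeR adjusted p = 0.0482), -0.54 on plain water and -0.74 on BAPN. The call was lost without any 1 of 19 of the 24 libraries, at edgeR adjusted p of up to 0.121, and with no filter on low counts, with treatment left out or with the neuron score as covariate (0.0591 to 0.0795). The receptor is best known from skeletal muscle, whose markers summed to 7.85 to 31.7 CPM in KI and 10.2 to 6518 CPM in WT aortas, and to 7.91 to 17.0 CPM in KI-BAPN and 6.90 to 12.3 CPM in WT-BAPN aortas. The 6518 CPM came from WT replicate 5, where Chrnb1 was lower than in any other library on plain water.

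Per kilobase of the gene length in the deposited table, the 7 genes stood in this order in WT aortas. Atad3a had a mean of 9.68 CPM per kilobase, Chrnb1 8.38, Kctd9 7.45, Ankib1 4.72, Nsd2 2.43, Rin1 2.08 and Zc3h6 0.895. In KI aortas the order of the mean levels was Atad3a at 215 CPM per kilobase, Chrnb1 at 5.37, Kctd9 at 4.88, Ankib1 at 3.29, Zc3h6 at 2.20, Nsd2 at 1.74 and Rin1 at 1.15. Zc3h6, the lowest of the 7 in WT, thus stood above Nsd2 and Rin1 in KI, with no test of that order.

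The RefSeq promoter table, on GRCm38.p6, held 4 of the 7 genes. Its entries run from 250 bases before to 50 bases after the start of the gene, and they are shown because these genes moved the same way under both treatments. The motifs searched on both strands were the GC box GGGCGG, the CCAAT box CCAAT, the ETS core CCGGAA and the E-box CACGTG, and matches are in capitals.
Zc3h6, chr2:128967152-128967451, plus strand: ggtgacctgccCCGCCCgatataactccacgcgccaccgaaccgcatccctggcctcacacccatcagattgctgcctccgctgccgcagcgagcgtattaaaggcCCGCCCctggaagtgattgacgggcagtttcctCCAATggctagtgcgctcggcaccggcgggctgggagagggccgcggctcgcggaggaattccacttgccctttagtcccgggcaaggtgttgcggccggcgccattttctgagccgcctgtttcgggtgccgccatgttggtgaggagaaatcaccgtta
Rin1, chr19:5050565-5050864, plus strand: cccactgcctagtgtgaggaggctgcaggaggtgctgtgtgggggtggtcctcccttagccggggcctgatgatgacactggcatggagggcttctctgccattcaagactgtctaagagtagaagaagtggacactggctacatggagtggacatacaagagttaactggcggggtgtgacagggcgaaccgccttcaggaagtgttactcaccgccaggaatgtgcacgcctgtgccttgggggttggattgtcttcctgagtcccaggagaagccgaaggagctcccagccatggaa
Ankib1, chr5:3803075-3803374, minus strand: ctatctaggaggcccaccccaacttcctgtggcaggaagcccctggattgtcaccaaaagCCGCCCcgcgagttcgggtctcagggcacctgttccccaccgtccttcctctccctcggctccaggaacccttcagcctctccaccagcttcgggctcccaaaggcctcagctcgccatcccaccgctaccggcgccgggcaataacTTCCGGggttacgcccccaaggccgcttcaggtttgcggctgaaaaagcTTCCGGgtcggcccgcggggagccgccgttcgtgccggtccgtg
Chrnb1, chr11:69795888-69796187, minus strand: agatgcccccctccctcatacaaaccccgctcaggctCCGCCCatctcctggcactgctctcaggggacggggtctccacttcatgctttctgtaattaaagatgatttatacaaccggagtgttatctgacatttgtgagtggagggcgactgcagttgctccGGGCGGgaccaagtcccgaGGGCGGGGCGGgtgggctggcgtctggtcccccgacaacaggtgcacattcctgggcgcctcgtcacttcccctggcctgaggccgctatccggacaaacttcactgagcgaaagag
The window of Zc3h6, which rose, held 2 GC boxes and 1 CCAAT box. Among the genes that fell, Chrnb1 held 4 GC boxes, the last 2 of which share bases, and Ankib1 held 1 GC box and 2 ETS cores, while Rin1 held no match. Of all 32851 promoters of this length in the table, 35.7% held a GC box, 37.4% a CCAAT box, 14.9% an ETS core and 7.15% an E-box. No motif was common to the 3 genes that fell, and a match is a description of letters, not of binding.

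Just outside the threshold lay 15 genes with edgeR adjusted p of 0.0513 to 0.0571, 9 higher and 6 lower in KI. All 15 had the same sign under both treatments, where 49.7% of all genes did. The additive fit that ranked them favours such genes, so the shared sign is not independent evidence. The 15 are named here after their values were seen, and none is called in edgeR. DESeq2 called all 15, and limma voom called all but Dbt (adjusted p = 0.0643). Kcnn1, a small-conductance calcium-activated potassium channel, had a log2 difference of 0.77 ± 0.15, with 0.90 on plain water and 0.65 on BAPN. Trmt9b, related to tRNA methyltransferases, had 1.18 ± 0.25, and Ttc38 had 0.79 ± 0.17. The aminoacylase Acy3 had 0.76 ± 0.16 and laforin, Epm2a, a glycogen phosphatase, 0.55 ± 0.11. For Ebpl, Rfxank (a subunit of the RFX complex that drives MHC class II genes) and Dbt (a subunit of the branched-chain ketoacid dehydrogenase) the log2 differences were 0.57, 0.49 and 0.47. The protein-coding gene Nr2c2ap overlaps Rfxank on the opposite strand in GENCODE M21, and without strand information their reads cannot be told apart.

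Cfap410, a cilium-associated gene, was with Atad3a 1 of only 2 genes among all tested (0.0141%) whose KI and WT libraries did not overlap in the same direction under both treatments. Its level was 18.9, 20.7, 20.1, 20.5 and 24.5 CPM in KI aortas, against 13.1 to 18.8 CPM around a median of 15.6 in WT aortas. With BAPN it lay at 18.0 to 23.6 CPM around a median of 19.7 in KI-BAPN aortas, against 13.3 to 17.8 CPM around a median of 16.5 in WT-BAPN aortas. The gaps between the groups were narrow, and the pooled log2 difference was 0.36 ± 0.08 (edgeR adjusted p = 0.0571). Without overlap in 1 treatment alone there were 339 genes on plain water (2.38%) and 31 on BAPN (0.218%).

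The 6 lower genes just outside the threshold included Sgms2, a sphingomyelin synthase, with a log2 difference of -0.74 ± 0.15, -1.06 on plain water and -0.47 on BAPN. The pump Atp2c1, which moves calcium and manganese into the Golgi, had -0.38 ± 0.07, with -0.36 on plain water and -0.39 on BAPN. Myo19, a myosin that binds mitochondria, had -0.61 ± 0.13, Rab23, a GTPase of the hedgehog pathway, -0.52 ± 0.11, the ETS factor Elf4 -0.45 ± 0.09 and the protease inhibitor Serpinb8 -0.81 ± 0.17. In GENCODE M21 the protein-coding genes Pigw and Znhit3 overlap Myo19, and Aste1 overlaps Atp2c1, on the opposite strand. Without strand information reads of overlapping genes cannot be told apart. At an adjusted p under 0.10 the edgeR count was 44 genes, 26 higher and 18 lower, and at an unadjusted p under 0.05 it was 2064 genes (14.5%), 1153 higher (8.11%) and 911 lower (6.41%).

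Within single treatments edgeR called 27 genes for the knock-in difference on plain water (0.19%) and 1, Atad3a, on BAPN (0.00703%), and these contrasts share no library. DESeq2 called 480 genes on plain water and 28 on BAPN. Of the 26 genes that edgeR called on plain water beside Atad3a, 13 were higher and 13 lower in KI. On BAPN 19 of the 26 had the same sign, 7 of the 13 higher and 12 of the 13 lower, beside 49.7% of all genes. Only Kctd9, Zc3h6, Epm2a, Sgms2 and Acy3 also had an unadjusted p under 0.05 on BAPN, where 13.9% of all genes did. In edgeR only Kctd9 and Zc3h6 were called over both treatments. DESeq2 and limma voom each also called Acy3, Epm2a, Sgms2, Cd44, Cars, Spire1, Ablim1, Hspa4l, Baiap2l1, Kcnk6 and Sphk1 over both treatments. In 24 of the 26 the size of the log2 difference on BAPN was under 0.5 times that on plain water. Their median size was 1.28 on the log2 scale on plain water and 0.33 on BAPN, but plain water chose these genes, so a smaller value on BAPN is partly built into the choice.

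Several of these 26 had a much smaller or an opposite difference on BAPN, and those given here were chosen after their values were seen. Ablim1, an actin-binding protein, was at 104 to 136 CPM in KI aortas and 253 to 294 CPM in WT aortas, and at 115 to 175 CPM in KI-BAPN aortas and 83.0 to 212 CPM in WT-BAPN aortas. Its log2 difference was -1.20 on plain water and -0.08 on BAPN. The WT-BAPN median, 149 CPM, lay below all WT libraries on plain water. Gli3, a transcription factor of hedgehog signalling, was at 4.80 to 8.10 CPM in KI and 12.0 to 15.4 CPM in WT aortas, but at 9.04 to 16.5 CPM in KI-BAPN and 7.92 to 13.8 CPM in WT-BAPN aortas. Npas2, a clock factor, had log2 differences of 2.43 on plain water and -0.42 on BAPN. The noradrenaline transporter Slc6a2 had 6.02 on plain water and 0.61 on BAPN, and it ranged from 0.047 to 258 CPM among KI aortas. Sympathetic neuron markers summed to 119 to 4127 CPM in KI and 94.1 to 220 CPM in WT aortas, but to 99.0 to 176 CPM in KI-BAPN and 119 to 224 CPM in WT-BAPN aortas. Their part in these genes was not tested.

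**Figure D2:**
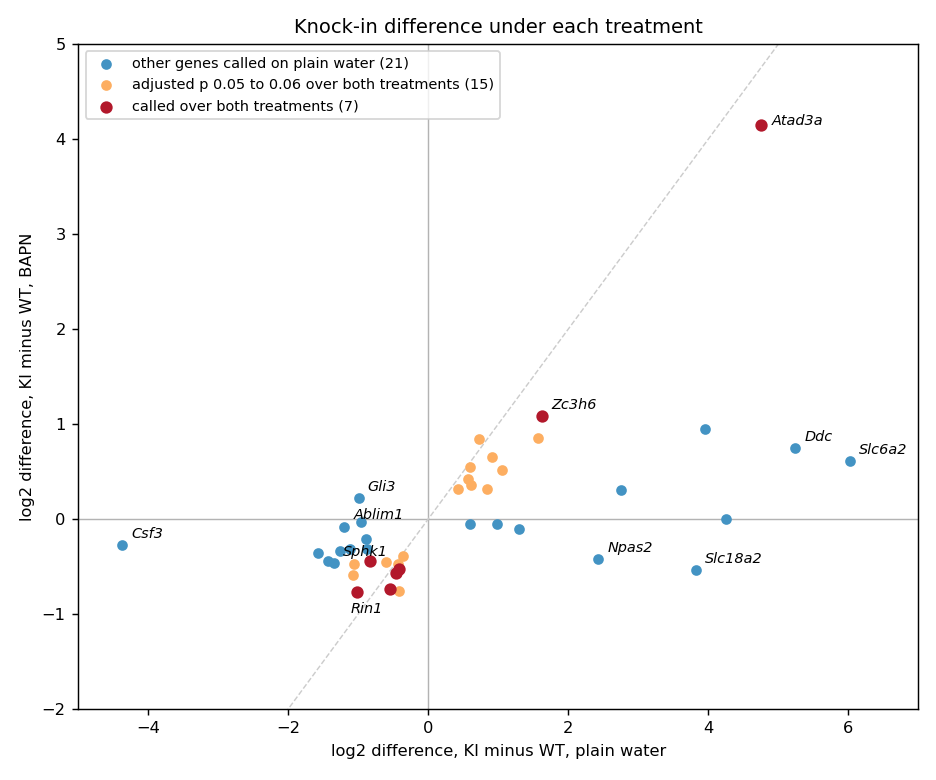
Log2 difference KI minus WT on plain water (x axis) against BAPN (y axis) for the 7 genes called over both treatments, 15 genes at adjusted p 0.05 to 0.06 and the other genes called on plain water, with the dashed line marking equal differences. Atad3a lies at 4.75 and 4.14 near the line, while Slc6a2, at 6.02 and 0.61, and Npas2, at 2.43 and -0.42, lie far below it.

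Over all genes, a test of whether the knock-in difference changed with BAPN called 0 genes in edgeR, at a smallest adjusted p of 0.280. There were 2111 genes at an unadjusted p under 0.05 (14.8%), and DESeq2 called 14. Of the 26 genes 23 had an unadjusted interaction p under 0.05. The interaction contains the plain-water difference that chose these genes, so this count is partly built into the choice and is no evidence of its own. Among the 100 genes with the smallest p on plain water beside Atad3a, 66 had the same sign on BAPN and 14 also an unadjusted p under 0.05 there. Among the 100 with the smallest p on BAPN, 66 had the same sign on plain water and 13 also an unadjusted p under 0.05. Of all genes 49.7% had the same sign under both treatments. Whatever the sign, 13.9% of all genes had an unadjusted p under 0.05 on BAPN and 16.9% on plain water. Across the 14216 genes the 2 differences had a Pearson r of 0.07 and a Spearman rho of 0.02, as a description, since genes are not independent replicates.

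Mitochondrial gene lists were examined because ATAD3A is a mitochondrial protein, and no member of any of the 39 lists examined was called in edgeR's additive fit. Among the lists also counted with other tools, DESeq2 called 2 fatty acid oxidation genes, 1 lipoylation gene, 4 sympathetic neuron markers and 1 adipocyte marker as higher and 1 heat shock gene as lower, and limma voom called 1 heat shock gene as lower. The list of 38 nuclear encoded subunits of the respiratory chain and ATP synthase had a median log2 difference of 0.49, against -0.02 over all genes, with 0.19 on plain water and 0.71 on BAPN. The log2 difference was positive under both treatments for 35 of the 38. Yet the median summed level on plain water was lower in KI (5148 CPM) than in WT aortas (5633 CPM). On BAPN it was 5885 CPM in KI-BAPN and 4119 CPM in WT-BAPN aortas. At an unadjusted p under 0.05, 33 of 38 were higher, against 8.11% of all genes, and none was lower. On plain water alone this held for 0 of 38, against 8.66% of all genes, and on BAPN alone for 33 of 38, against 7.27%. The smallest edgeR adjusted p was 0.169, for Ndufb3 of complex I. Ndufb3 averaged 115 CPM in KI aortas and 85.3 CPM in WT aortas over both treatments, and the complex IV subunit Cox4i1 averaged 455 CPM and 296 CPM in the same order.

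Of 20 fatty acid oxidation genes 11 were higher at an unadjusted p under 0.05, against 8.11% of all genes, with a median log2 difference of 0.47. Examples are the dehydrogenase Hadh (0.90 ± 0.25, edgeR adjusted p = 0.124) and the thiolase Acaa2 (1.18 ± 0.42). In the tricarboxylic acid cycle list 11 of 17 were higher at that level, with a median of 0.35, among them citrate synthase, Cs, at 0.44 ± 0.16 (edgeR adjusted p = 0.219). On plain water alone 1 of 20 and 1 of 17 in these 2 lists were higher at that level, against 8.66% of all genes. On BAPN alone it was 10 of 20 and 9 of 17, against 7.27%. In the additive fit 3 of 18 genes of the lipoylated complexes and lipoic acid synthesis were higher at that level, with a median of 0.17. Of 22 genes of the inner membrane and nucleoid, the structures in which ATAD3A acts, 3 were higher and 1 lower at that level. Of all genes 8.11% were higher and 6.41% lower, and the median of the 22 was 0.12. The mitochondrial DNA helicase Twnk had 0.37 ± 0.14 and the polymerase Polg -0.29 ± 0.12 (edgeR adjusted p of 0.229 and 0.285). The 13 genes encoded by mitochondrial DNA had a median of 0.10 and an opposite sign under the 2 treatments in every case, with medians of -0.45 on plain water and 0.31 on BAPN. At an unadjusted p under 0.05, 0 of 13 differed in the additive fit, 2 were lower on plain water and 2 higher on BAPN. Their sums overlapped, at 73091 to 157933 CPM in KI and 68832 to 157808 CPM in WT aortas. On BAPN the sums were 43686 to 159125 CPM in KI-BAPN and 40333 to 116934 CPM in WT-BAPN aortas.

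**Figure D3:**
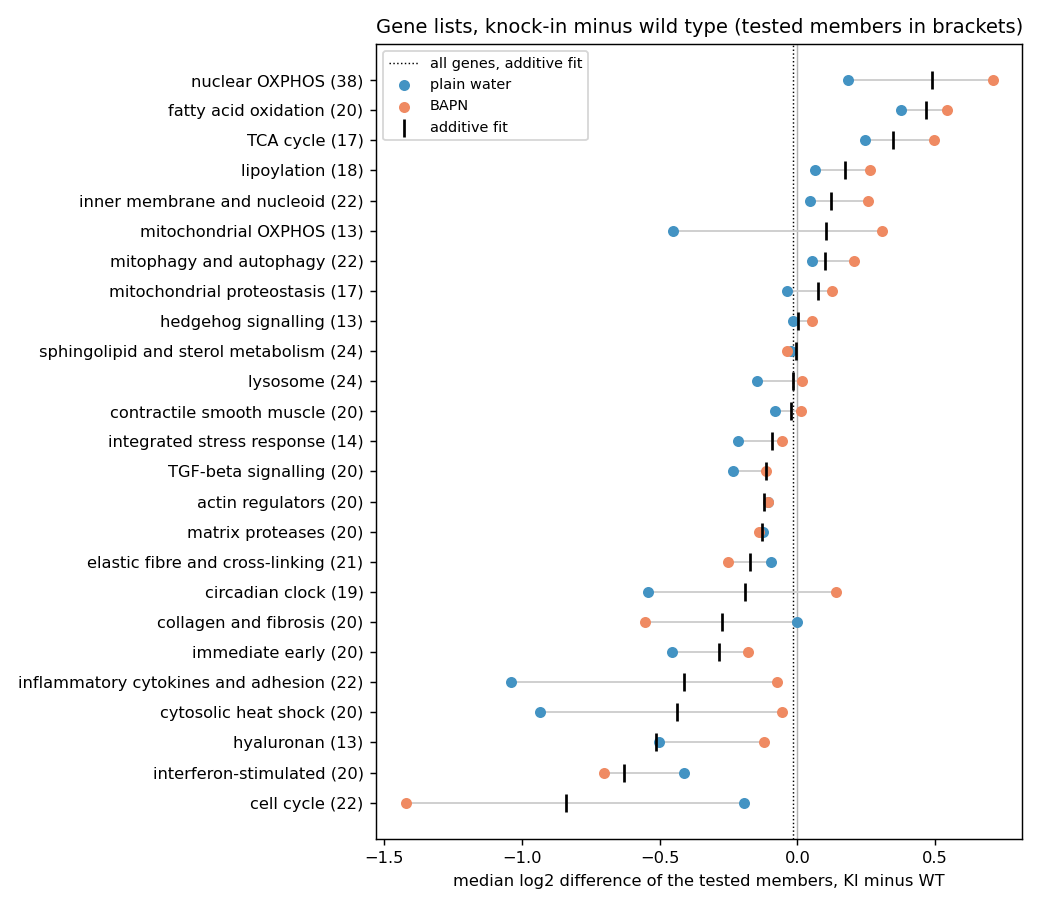
Median log2 difference KI minus WT of the tested members of 25 pathway lists, on plain water, on BAPN and in the additive fit, with the number of tested members in brackets. Nuclear OXPHOS, fatty acid oxidation and the TCA cycle lie to the right in both, at additive medians of 0.49, 0.47 and 0.35, while cytosolic heat shock and the cell cycle have their lower values mainly under 1 treatment.

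Adipocyte RNA moved with these lists. The 12 adipocyte markers had a median log2 difference of 1.48, and 7 of them were higher at an unadjusted p under 0.05. Their summed level was 492 to 8472 CPM (median 1272) in KI and 562 to 2748 CPM (median 1538) in WT aortas, and 871 to 8663 CPM (median 1706) in KI-BAPN and 257 to 3222 CPM (median 744) in WT-BAPN aortas. None of the defining markers given here, Adipoq and Ucp1, was at 0 in any library. The 3 libraries highest in nuclear OXPHOS RNA, KI replicate 5 at 12037 CPM, KI-BAPN replicate 3 at 11743 CPM and KI-BAPN replicate 2 at 11289 CPM, were also the 3 highest in adipocyte markers. The remaining 21 libraries had 3504 to 6622 CPM of nuclear OXPHOS RNA. Fatty acid oxidation genes had median summed levels of 1238 CPM in KI, 1372 in WT, 1418 in KI-BAPN and 1238 in WT-BAPN aortas. For the tricarboxylic acid cycle these medians were 2066.5, 2186, 2114 and 1840 CPM in the same order.

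With adipocyte and muscle scores as covariates, the count of nuclear OXPHOS genes higher at an unadjusted p under 0.05 was 0 of 38, that of fatty acid oxidation 2 of 20 and that of the tricarboxylic acid cycle 1 of 17. Leaving out KI replicate 5 gave an OXPHOS count of 12, leaving out KI-BAPN replicate 2 gave 19 and leaving out KI-BAPN replicate 3 gave 15. It was 32 without the 4 libraries rich in other tissue, which do not include these KI-BAPN libraries, and 26 with the neuron score as covariate. For fatty acid oxidation it was 5 without KI replicate 5 and 7 without KI-BAPN replicate 3, and for the tricarboxylic acid cycle 3 without KI replicate 5. These counts were added after the data were seen. In limma voom, which gives less weight to deviating libraries, they were 14, 3 and 3.

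**Figure D4:**
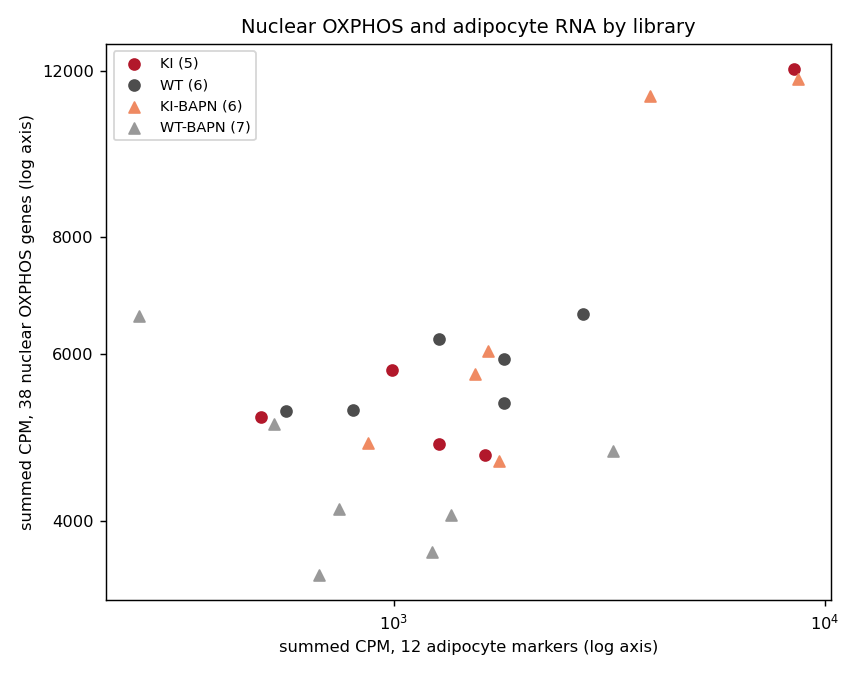
Summed CPM of 38 nuclear OXPHOS genes against those of 12 adipocyte markers, both axes logarithmic, with 1 point per library in KI, WT, KI-BAPN and WT-BAPN. The 3 points at 11289 to 12037 CPM of OXPHOS RNA are KI or KI-BAPN libraries with 3935 to 8663 CPM of adipocyte RNA.

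Other lists had their lower pooled value mainly from 1 treatment. Cytosolic heat shock genes had a median log2 difference of -0.44, made of -0.93 on plain water and -0.06 on BAPN, and 5 of 20 were lower at an unadjusted p under 0.05, against 6.41% of all genes. The count of 5 ranged from 2, without KI replicate 3 or WT replicate 4, to 11, without KI-BAPN replicate 4 or 5. The summed level was 4021 to 10137 CPM in KI and 8902 to 25352 CPM in WT aortas. On BAPN it was 2887 to 9257 CPM in KI-BAPN and 3564 to 8719 CPM in WT-BAPN aortas. Hspa8, the constitutive heat shock cognate, had -1.64 on plain water and -0.01 on BAPN. Cell cycle genes ran the other way, with a median of -0.84, made of -0.19 on plain water and -1.42 on BAPN. Their summed level was 137 to 175 CPM in KI and 181 to 234 CPM in WT aortas, and 159 to 337 CPM in KI-BAPN and 181 to 1004 CPM in WT-BAPN aortas. The sums thus did not overlap on plain water, where the median log2 difference was smaller, but overlapped on BAPN. The mitotic cyclin Ccnb1 had log2 differences of -0.68 on plain water and -1.87 on BAPN, and 5 of 22 members were lower at an unadjusted p under 0.05 in the additive fit. That count ranged from 0 without WT-BAPN replicate 7 to 13 without WT-BAPN replicate 1.

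Some lists had differences of opposite sign that the additive fit averages out. The 19 circadian clock genes had medians of -0.54 on plain water and 0.14 on BAPN, and 4 of 19 shared a sign, beside 49.7% of all genes. At an unadjusted p under 0.05, 10 were lower and 2 higher on plain water, and 0 lower and 2 higher on BAPN. Yet their median summed level was lower in KI (1044 CPM) than in WT aortas (1426 CPM). It was also lower in KI-BAPN (1018 CPM) than in WT-BAPN aortas (1117 CPM). None of 14 macrophage markers shared a sign, with medians of -1.29 on plain water and 0.90 on BAPN. Only 1 of the 14 was lower on plain water and 0 were higher on BAPN at an unadjusted p under 0.05. Their sums were 89.2 to 298 CPM (median 170) in KI and 67.5 to 2576 CPM (median 224) in WT aortas. On BAPN they were 247 to 2715 CPM (median 382) in KI-BAPN and 132 to 1203 CPM (median 320) in WT-BAPN aortas. Contractile smooth muscle genes had a pooled median of -0.02 and 0 of 20 at an unadjusted p under 0.05 in either direction, with a smallest edgeR adjusted p of 0.584. Of the matrix lists, collagen and fibrosis and elastic fibre and cross-linking had the more negative median on BAPN. Matrix proteases had near equal medians, -0.12 on plain water and -0.14 on BAPN. The hyaluronan list ran the other way, with -0.50 on plain water and -0.12 on BAPN. For collagen and fibrosis the median was -0.27 over both treatments, -0.00 on plain water and -0.55 on BAPN. At an unadjusted p under 0.05, 2 of 20 were lower in the pooled fit, where 6.41% of all genes were. On BAPN alone 6 of 20 were lower at that level, where 950 of all 14216 genes were. For elastic fibre and cross-linking it was -0.17, -0.10 on plain water and -0.25 on BAPN, with 2 of 21 lower in the pooled fit.

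**Figure D5:**
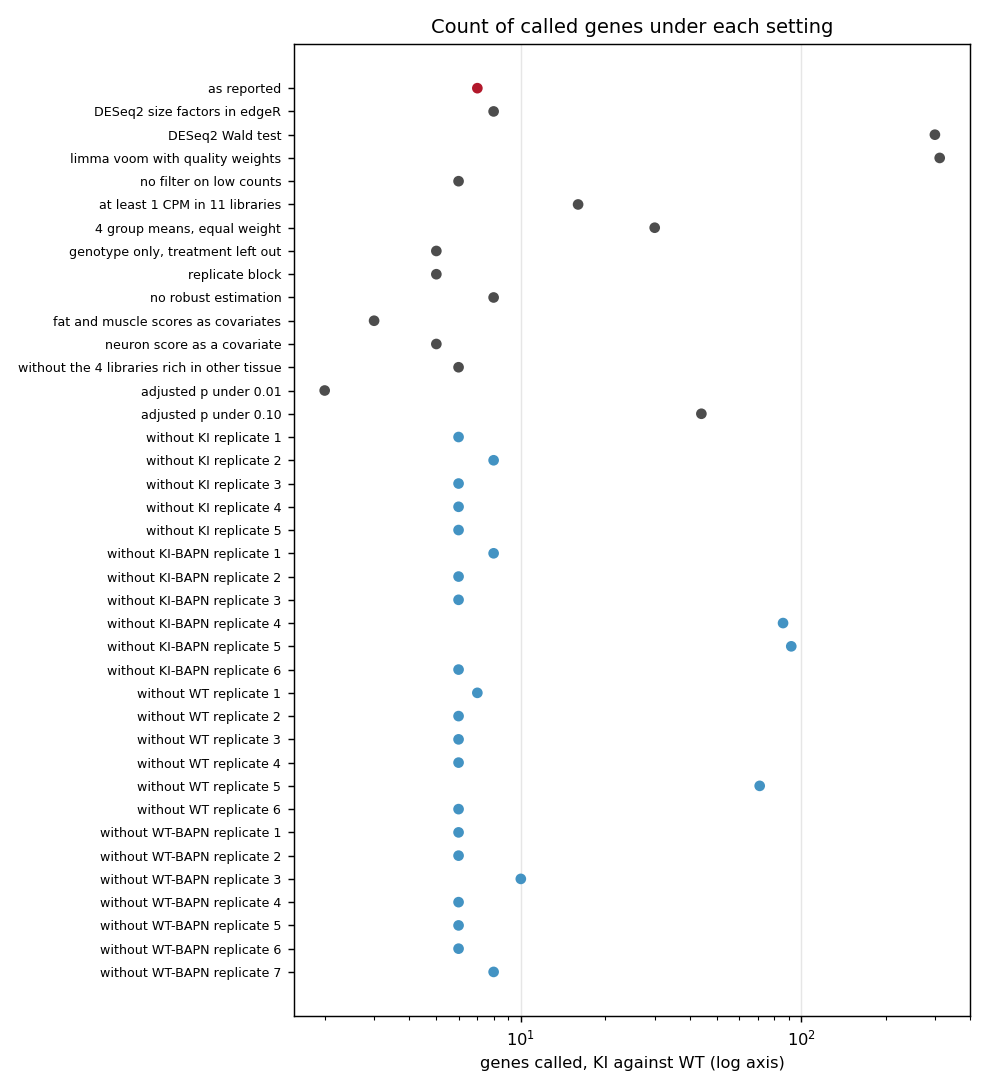
Number of genes called, KI against WT over both treatments, on a logarithmic axis, for the reported fit, for other settings and without each library in turn. The reported count is 7, and the counts without KI-BAPN replicate 5, KI-BAPN replicate 4 and WT replicate 5 stand apart at 92, 86 and 71.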

How the data were processed

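The authors deposited raw read counts per gene for 24 aortas. Trim Galore, FastQC, HISAT2 and DESeq2, with GRCm38 and mm10 as builds, appear in the submitters' processing notes. Read counter, strand setting and versions: not given in the sources used here. Of 21851 identifiers found in GENCODE M21, 514 had its start and end, so the build of the deposited coordinates is open and none is printed. Each count column carries a code that 1 sample's description gives, and 0 per-sample columns were left over. Each library is taken as 1 animal, as the labels list them, and no pair within a group agreed within sampling noise (lowest chi-square over its degrees of freedom 31.0).

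edgeR 4.0.16 in R 4.3.3 fitted genotype plus treatment over all 24 libraries (TMM, filterByExpr by the 4 groups, robust quasi-likelihood F tests). Genes at a Benjamini-Hochberg adjusted p under 0.05 over all 14216 were called. Differences within a treatment and the interaction came from a fit of 4 group means. SE is the log2 difference divided by the square root of F, and CPM use the TMM factors. Named genes are Atad3a and up to 12 called genes in each direction with 1 sign under both treatments and at least 5 CPM in the higher genotype, plus called list members and interaction genes, of which there were none. Other genes named were chosen after their values were seen, as stated. The comparison, the lists and the tests were chosen with earlier results of these data known. Alternatives used DESeq2 1.42.0, limma 3.58.1 voom with quality weights, other filters and size factors, covariate scores, thresholds and each library left out. The 4 libraries left out together as rich in other tissue are KI replicates 1, 2 and 5 and WT replicate 5, so KI-BAPN replicates 2 and 3, rich in adipocyte markers, stay in that fit. Steps were tested on simulated data. Figures used matplotlib 3.10.9.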

Additional observations from a re-analysis of the deposited data

Results flagged for a closer look

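Among 28 groups of libraries checked, the 4 groups of each of the 7 called genes, 3 held a library far from the others, where chance flags about 1 in 20. Ankib1 in KI replicate 3 was at 22.2 CPM, below the 30.5 to 31.4 CPM of the other KI libraries. Kctd9 in WT-BAPN replicate 3 was at 26.2 CPM, below the 34.3 to 39.5 CPM of the other WT-BAPN libraries. Chrnb1 in WT replicate 5 was at 12.7 CPM, below the 22.3 to 26.6 CPM of the other WT libraries. WT replicate 5 is the library with 22842 CPM of airway epithelium markers. Kctd9 and Ankib1 remained called without these libraries, and the log2 difference of Chrnb1 was -0.71 without WT replicate 5.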

How the results depend on the processing

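The 7 calls (2 higher, 5 lower, 7 with 1 sign under both treatments) came to 299 (186, 113, 298) with DESeq2, 311 (131, 180, 310) with limma voom, 16 (8, 8, 16) with at least 1 CPM in 11 libraries, 30 (12, 18, 30) with 4 equally weighted group means, 3 (2, 1, 3) with adipocyte and muscle scores as covariates, 2 (2, 0, 2) at an adjusted p under 0.01 and 44 (26, 18, 44) under 0.10. DESeq2 and voom shared 168 calls, 56.2% of the DESeq2 calls and 54.0% of the voom calls. The lower genes were 3 with treatment left out and 3 with the neuron score as covariate. Leaving out each library gave 6 to 92 calls, 2 to 49 higher, 4 to 46 lower and 6 to 92 with 1 sign, the high counts coming without KI-BAPN replicate 4 (86), KI-BAPN replicate 5 (92) or WT replicate 5 (71). The causes were not tested. With the replicate number as a block there were 5 calls, 4 higher and 1 lower, and Rin1, Ankib1, Nsd2 and Chrnb1 were not called (edgeR adjusted p of 0.0665 to 0.0809). Of 33 same-numbered pairs 16 had a correlation of deviations over 0.1 (range -0.52 to 0.57), and no label ties the numbers together, so they were not taken to pair the animals. Atad3a and Zc3h6 were called in all 12 other fits and without each library. Kctd9, Rin1, Ankib1 and Nsd2 were called without each library, and Chrnb1 without 5 of 24. No value changed sign. Rin1 and Zc3h6 had the lowest mean CPM of the 7, so counting error weighs most there.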

Other observations

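Near Atad3a on chromosome 4, 79 tested genes lay within 5 Mb in the deposited coordinates. None was called in edgeR, and 15 of the 79 (against 14.5% of all genes) had an unadjusted p under 0.05, 5 higher and 10 lower in KI. The smallest adjusted p was 0.111, for Smim1, with a log2 difference of 0.49, and Pusl1 had -0.34 (edgeR adjusted p = 0.184). The window was set with no knowledge of where the allele lies.

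The 20 interferon-stimulated genes had a median log2 difference of -0.63, with -0.41 on plain water and -0.70 on BAPN, 16 of them with a negative difference under both treatments, and 2 were lower at an unadjusted p under 0.05, where 6.41% of all genes were. Their summed level was 240 to 722 CPM (median 341) in KI-BAPN and 152 to 3391 CPM (median 284) in WT-BAPN aortas. The highest value was that of WT-BAPN replicate 2, while the median sum was higher in KI-BAPN than in WT-BAPN aortas. On plain water the sums were 240 to 454 CPM (median 317) in KI and 271 to 812 CPM (median 321) in WT aortas. The 22 inflammatory cytokine and adhesion genes had -0.41, with -1.04 on plain water and -0.07 on BAPN, and 5 lower at an unadjusted p under 0.05. They summed to 227 to 433 CPM in KI and 320 to 1986 CPM (median 482) in WT aortas, the highest being WT replicate 5, which also held 316 CPM of T cell markers and 646 CPM of B cell markers. The part of these libraries in the lower values was not tested. The endothelial selectin Sele had the smallest edgeR adjusted p among them, 0.124. Of 20 genes of TGF-beta signalling 5 were lower at an unadjusted p under 0.05, against 6.41% of all genes, with a median of -0.11. Skil, an inhibitor of SMAD proteins, had the smallest edgeR adjusted p among them, 0.176.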
